A study of Mus musculus with 7 samples.

Results

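The keratin gene family was taken as every protein-coding gene whose symbol is Krt followed by a number and at most 1 letter, which gave 53 of the 53379 genes in the count tables. The genes lie in 2 blocks of the mouse genome (GRCm38), 27 on chromosome 11 and 26 on chromosome 15, and comprise 27 type I and 25 type II chains and Krt222, which was assigned to neither type. By their usual tissue of expression, 6 were classed as simple epithelial keratins, 21 as basal or squamous keratins, 23 as hair and hair follicle keratins, and 3 (Krt88, Krt90 and Krt222) were left unclassified. Membership was set by gene name and not by the values of the members, but the family was chosen with earlier results of these data known.

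RNA was sequenced from endometrial epithelial cells, the cells lining the lumen and glands of the uterus, which were selected magnetically for EPCAM from dissociated uteri of CD-1 mice. The 4 mutant libraries, labelled LtfCreBrg1flfl, each came from 1 mouse aged 120 days with the genotype LtfCre 0/+; Brg1 fl/fl. In these mice Cre recombinase is driven by Ltf, the lactoferrin gene, and acts on floxed alleles of Brg1 (Smarca4), the gene of a catalytic subunit of SWI/SNF, which moves nucleosomes. Each of the 3 control libraries was made from a pool of CD-1 mice labelled wild-type and was reanalysed from an earlier series, on whose first flow cell it was run. The sources used here give no age for the controls. Genotype therefore cannot be told apart from library set, age or pooling.

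Keratins are the intermediate filament proteins of epithelial cells, and each filament is built from pairs of 1 type I and 1 type II chain. Simple epithelia such as that of the uterus mainly use KRT8 with KRT18, joined by KRT7 and KRT19. The basal layer of stratified epithelia uses KRT5 with KRT14, and layers above it, or squamous metaplasia, use pairs such as KRT1 with KRT10 and KRT4 with KRT13. KRT6, KRT16 and KRT17 are known from wounded and hyperproliferative epidermis, and hair keratins from the hair shaft and its sheath.

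Reads counted in genes ran from 12436971 to 13364080 in mutants and from 21372036 to 25862245 in controls. Levels are given as scaled CPM, reads per 1000000 gene reads after the TMM library scaling used in the test, and the floor of 3 reads equals 0.182 to 0.234 scaled CPM in mutants and 0.136 to 0.158 in controls, counting error only. Smarca4 stood at 87.4, 56.6, 86.8 and 105.1 scaled CPM in mutant replicates 1 to 4 and at 262.5, 244.9 and 278.9 in control replicates 1 to 3, with no overlap (log2 fold change −1.64 ± 0.23 SE, edgeR adjusted p = 0.00967). Epithelial identity of the libraries was checked on 6 markers other than keratins, all of which were detected in every library. Of the 6, 1 was lower and 0 higher, beside 6.18% and 5.37% of all genes tested, and 2, Esrp1 and Tjp3, had positive fold changes. Their summed level was 3029 to 3636 scaled CPM in mutants and 4619 to 5551 in controls, without overlap, and the part of this difference in the keratin values was not tested. Epcam, the antigen of the sort, measured 572.5 to 742.0 scaled CPM in mutants and 821.1 to 964.6 in controls (log2 fold change −0.38, adjusted p = 0.206), and Cdh1 (E-cadherin) was lower in mutants (−0.91 ± 0.20 SE, adjusted p = 0.0307), a call that held without mutant replicate 1 but not without any 1 of the other libraries. Mutant replicate 1 was the highest mutant for 9 and the lowest for 9 of the 29 tested keratins. Over all genes tested it was the highest for 34.6% and the lowest for 35.3%, so its distance was not particular to keratins. Results that rest on it are given with and without it.

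Promoter sequences from the RefSeq table of GRCm38.p6 are shown for Krt8, Krt18 and Krt7, main keratins of simple epithelia, and for Krt36, a hair keratin that fell in mutants. Each runs 5′ to 3′ on the gene's strand from 250 bases before the annotated start to 19 after it, at chr15:102004323-102004592 (minus strand) for Krt8, chr15:102027966-102028235 (plus) for Krt18, chr15:101412153-101412422 (plus) for Krt7 and chr11:100105607-100105876 (minus) for Krt36. Capitals mark TATAAA, the core of a TATA box, or GGGCGG, a GC box, on either strand.
Krt8: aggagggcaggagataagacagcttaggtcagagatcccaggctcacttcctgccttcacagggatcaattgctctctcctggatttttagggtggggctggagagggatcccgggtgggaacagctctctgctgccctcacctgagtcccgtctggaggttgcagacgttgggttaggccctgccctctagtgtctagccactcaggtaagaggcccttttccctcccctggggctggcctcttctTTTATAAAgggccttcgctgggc
Krt18: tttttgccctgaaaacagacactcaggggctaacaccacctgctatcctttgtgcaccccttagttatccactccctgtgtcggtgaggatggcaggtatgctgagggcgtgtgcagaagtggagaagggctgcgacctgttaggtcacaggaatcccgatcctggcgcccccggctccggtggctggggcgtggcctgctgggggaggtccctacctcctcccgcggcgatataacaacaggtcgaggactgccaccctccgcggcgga
Krt7: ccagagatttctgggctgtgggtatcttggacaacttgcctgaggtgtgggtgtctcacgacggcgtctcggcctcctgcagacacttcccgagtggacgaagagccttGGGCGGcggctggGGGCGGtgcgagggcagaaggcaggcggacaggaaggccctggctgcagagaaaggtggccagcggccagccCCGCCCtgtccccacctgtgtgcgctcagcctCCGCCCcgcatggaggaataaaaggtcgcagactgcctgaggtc
Krt36: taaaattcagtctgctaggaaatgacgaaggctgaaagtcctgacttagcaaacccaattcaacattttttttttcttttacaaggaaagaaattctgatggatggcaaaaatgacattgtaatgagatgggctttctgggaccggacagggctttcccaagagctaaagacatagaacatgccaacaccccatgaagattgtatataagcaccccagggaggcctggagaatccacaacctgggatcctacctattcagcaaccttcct
In Krt8 the capitals are TATAAA and its overlapping reverse complement at positions −1 and −3 from the annotated start base (position 0). Krt7 held GGGCGG or its reverse complement 4 times, at −141, −128, −56 and −24, and the windows of Krt18 and Krt36 held none of the motifs searched. Positions count from the RefSeq start, which for Krt8, Krt18 and Krt7 differs from the 5′ end of the gene span given further on.

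Windows from 250 bases before to 50 after the start, held for 36 of the 53 keratins (37 windows), were searched on both strands. The motifs were the TATA core TATAAA, the GC box GGGCGG and TGANTCA, where N is any base, a loose form of the core of an AP-1 site. Krt4, Krt6a, Krt88 and Krt19 are among the keratins with no window, so the shares below do not cover them. The motif TATAAA occurred in 51.4% of the keratin windows, against 13.6% of all 32851 windows in the table. It occurred in 6 of the 19 windows of keratins abundant enough to test and in 13 of the 18 windows of keratins that were not. GGGCGG was found in 5.41% of the keratin windows, those of Krt7 and Krt75, against 35.7% of all windows. TGANTCA likewise occurred in 5.41%, both windows belonging to Krt13, against 7.81% overall. One Krt13 window matched as TGAATCA only and the other as TGACTCA, so these are shares of the loose form and not of AP-1 cores. These are counts of letters, with no test, and the motifs do not overlap one another except for TATAAA with its own reverse complement.

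Mutants were compared with controls to ask how loss of Brg1 in the endometrial epithelium alters keratin transcripts. Of the 53 keratins, 29 had enough reads to be tested, 6 simple, 14 basal or squamous, 7 hair and 2 unclassified, and 5 of these 29 were lower in mutants (Krt4, Krt6a, Krt36, Krt88 and Krt8) while 0 were higher. Among all 14610 genes tested, 6.18% were lower and 5.37% higher (edgeR quasi-likelihood F test, threshold 0.05 on p-values adjusted over all genes by Benjamini-Hochberg). At an unadjusted p under 0.05, 10 of the 29 keratins were lower and 0 higher, against 14.6% of all genes lower. DESeq2 called 10 keratins lower and 0 higher, with 8.73% of 18651 genes lower, and limma-voom 8 lower and 0 higher, with 7.95% of genes lower. All 29 tested keratins had a negative fold change, with a median log2 value of −1.27, against 46.5% of all genes and a median of 0.06. In that fit the median was −0.92 for simple, −1.82 for basal or squamous and −1.27 for hair keratins. Under upper-quartile or total count scaling, with unstranded counts or with a term for replicate number, 28 of 29 were negative and Krt10 turned positive. Without mutant replicate 4, 29 of 31 were negative, and without control replicate 3, 27 of 29. The median was −0.95 with total count scaling (all genes 0.41) and −0.94 without control replicate 3 (all genes 0.11). For 13 of the 29, every mutant library lay below every control, a pattern shown by 16.1% of all genes tested. In bulk RNA, fewer cells of a type and less RNA per cell cannot be told apart.

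**Figure D1:**
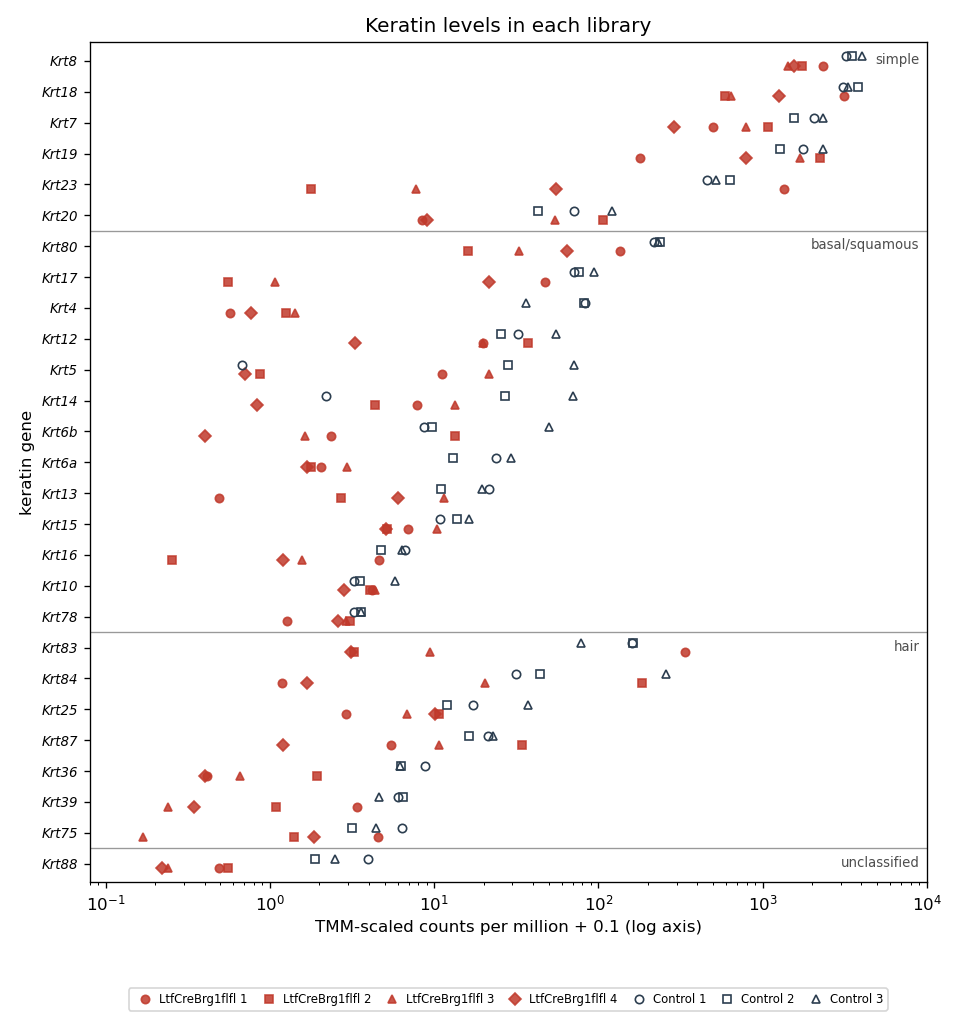
Level of each named keratin in each library, on a log axis of scaled CPM plus 0.1, grouped by class and ordered by the control mean. Red symbols are the 4 LtfCreBrg1flfl libraries and open dark symbols the 3 controls, and for Krt4, Krt6a, Krt36, Krt88 and Krt8 all red symbols lie to the left of the dark ones.

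Counted without mutant replicate 1, the picture held more calls. Then 13 of 31 tested keratins were lower and 0 higher, with a median log2 fold change of −1.98, while 14.0% of all 14903 genes tested were lower. The 8 keratins added to the 5 above were Krt7, Krt16, Krt18, Krt23, Krt39, Krt80, Krt83 and Krt86. Replicate 1 was set aside because of its own keratin values, so these added calls are descriptive. Of the 8, only Krt7 and Krt86 passed with another single library left out, mutant replicate 2. The number lower fell to 2, Krt4 and Krt6a, without any 1 of the controls, and was 6, 3 and 3 without mutant replicates 2, 3 and 4. Calls over all genes fell as well. Those lower were 84 of 15144, 112 of 15190 and 92 of 15195 genes without control replicates 1, 2 and 3. They were 617 of 14958, 374 of 14933 and 556 of 14824 without mutant replicates 2, 3 and 4. Keratins varied more among mutants than the typical gene. Their median SD of log2 level was 1.63 in mutants and 0.45 in controls, against 0.52 and 0.24 for all genes tested.

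**Figure D2:**
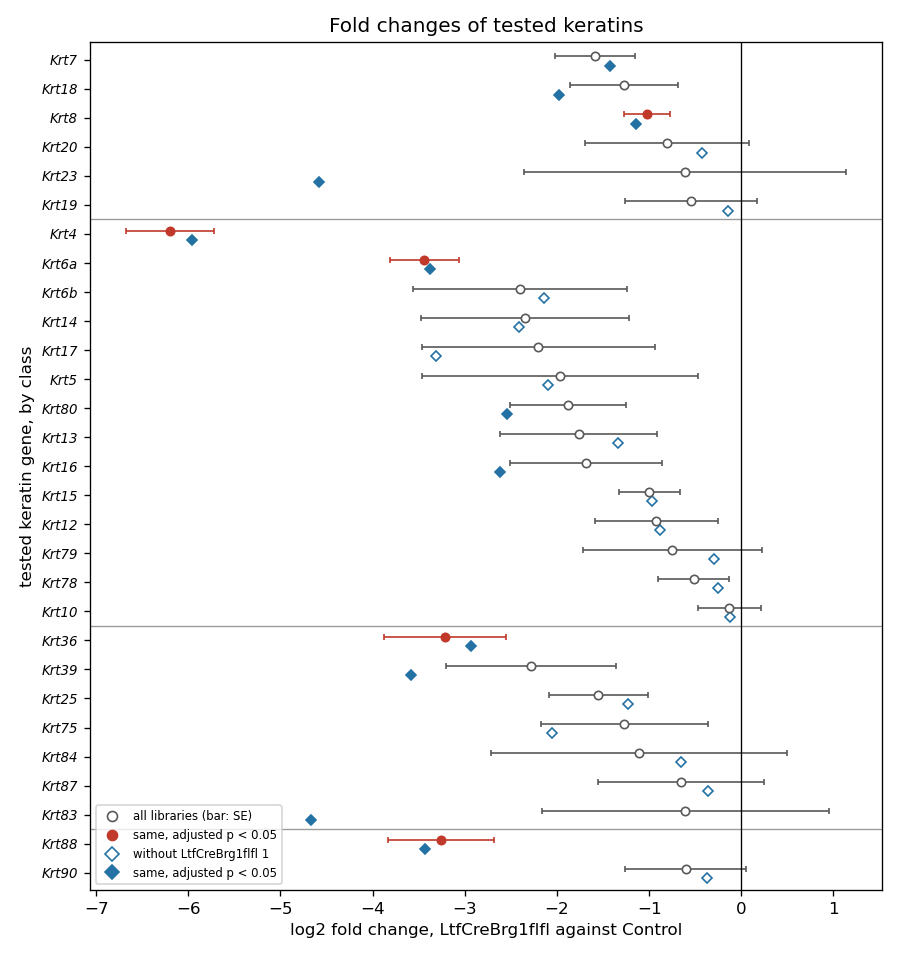
Log2 fold change of each of the 29 tested keratins, LtfCreBrg1flfl against Control, by class from simple (top) through basal or squamous and hair to unclassified. Circles with SE bars are the fit over all libraries and diamonds the fit without LtfCreBrg1flfl replicate 1, filled where the adjusted p was under 0.05. All circles lie left of 0, Krt10 being the one that other scalings move past it, and the diamonds of Krt23 and Krt83 lie about 4 units further left than their circles.

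Among the simple keratins, Krt8, the main type II partner of simple epithelia (chromosome 15, 101996698 to 102004482, minus strand), stood at 2332, 1742, 1433 and 1560 scaled CPM in mutant replicates 1 to 4 and at 3200, 3528 and 4058 in control replicates 1 to 3. Every mutant lay below every control. The difference was 2.03-fold (log2 fold change −1.02 ± 0.25 SE, edgeR adjusted p = 0.0421). The adjusted p was 0.00810 without mutant replicate 1 and between 0.0810 and 0.165 without any other library, so the call ended while the fold kept its size. Of the 50-base words in Krt8 transcripts, 29.7% also occur in other genes, mostly the pseudogene Krt8-ps, which makes its count uncertain.

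Krt18, the type I partner of Krt8 and its neighbour on chromosome 15 (102028180 to 102032027, plus strand), measured 3135, 587.6, 646.0 and 1264 scaled CPM in the mutants and 3072, 3815 and 3337 in the controls. Mutant replicate 1 fell within the control range and the other 3 mutants below it. Over all libraries Krt18 did not pass (log2 fold change −1.27 ± 0.59 SE, adjusted p = 0.185). Without mutant replicate 1 it did (−1.98, adjusted p = 0.00894), at one of the adjusted p-values of 0.00894 to 0.389 that leaving out single libraries gave.

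Krt7, a type II keratin of glandular epithelium (chromosome 15, 101411043 to 101430313, plus strand), was at 495.9, 1080, 787.8 and 290.5 scaled CPM in mutants and 2069, 1552 and 2350 in controls. The groups did not overlap, and the lowest values were those of mutant replicates 1 and 4. The log2 fold change of −1.58 ± 0.43 SE narrowly missed the threshold (adjusted p = 0.0564). It passed without mutant replicate 1 (adjusted p = 0.0497) or 2 (0.0436), and the range without single libraries was 0.0436 to 0.180.

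Krt19, the small type I keratin that pairs with Krt7 and Krt8, varied more between mutants than between the groups. It measured 178.1, 2229, 1697 and 794.2 scaled CPM in mutants and 1752, 1280 and 2326 in controls. Replicates 2 and 3 lay inside the control range, and replicate 1 was far below it (log2 fold change −0.54 ± 0.72 SE, adjusted p = 0.643). Krt20, a type I keratin best known from intestine and urothelium, followed the same order of mutants, with 8.35, 107.1, 54.4 and 8.996 scaled CPM against 70.9, 42.9 and 120.9 (−0.81 ± 0.89 SE, adjusted p = 0.574). In both genes replicate 2 was the highest and replicate 1 the lowest mutant.

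Krt23, a type I keratin of glandular epithelia, showed the widest spread. Its level was 1347, 1.69, 7.62 and 54.9 scaled CPM in mutants and 459.4, 632.7 and 523.7 in controls. Mutant replicate 1 exceeded every control and was 24.5-fold above the next mutant, whereas the other 3 mutants lay below all controls. Over all libraries the log2 fold change was −0.61 ± 1.75 SE (adjusted p = 0.843), and without mutant replicate 1 it was −4.58 (adjusted p = 0.0264).

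Because genes differ in length, levels were compared between genes per kilobase of merged exons. In controls Krt18 ranked highest, at 2372 ± 262 scaled CPM per kb (SD, n = 3), followed by Krt8 (1836 ± 221), Krt19 (963 ± 282), Krt23 (344 ± 55.9) and Krt7 (282 ± 57.4). The ranges of Krt18 and Krt8 did not overlap, nor did those of Krt8 and Krt19, but those of Krt23 and Krt7 did. Krt7 moved ahead of Krt23 (486 against 344) when the longest coding transcript was used as the length. Next by the mean came a hair keratin, Krt83 (72.7), then Krt17 (51.9), Krt84 (42.2), Krt20 (40.6) and Krt80 (35.8). Their order is not secure, as Krt83 ran from 42.5 to 88.4 and overlapped Krt17, Krt84 and Krt20, which also overlapped one another. The range of Krt80 lay inside those of Krt84 and Krt20. Krt80 (58.4) moved ahead of Krt17 with the coding transcript length.

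Simple keratins made up 94.2%, 95.3%, 96.8% and 98.0% of the summed per-length level in mutant replicates 1 to 4 and 94.5%, 94.7% and 93.3% in the controls. Within that share the make-up differed between mutants. Krt18 took 46.6%, 14.4%, 19.4% and 39.4% of the sum in mutants and 37.8%, 43.4% and 34.0% in controls. Krt19 took 2.05%, 42.2%, 39.5% and 19.2% in mutants and 16.7%, 11.3% and 18.3% in controls. Krt8 was steadier, with 25.5% to 35.7% in mutants and 28.9% to 30.3% in controls. The per-length ratio of Krt18 to Krt8 was 1.83, 0.460, 0.614 and 1.10 in mutants and 1.31, 1.47 and 1.12 in controls, so replicates 2 and 3 held less Krt18 than Krt8 transcript and every control held more.

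**Figure D3:**
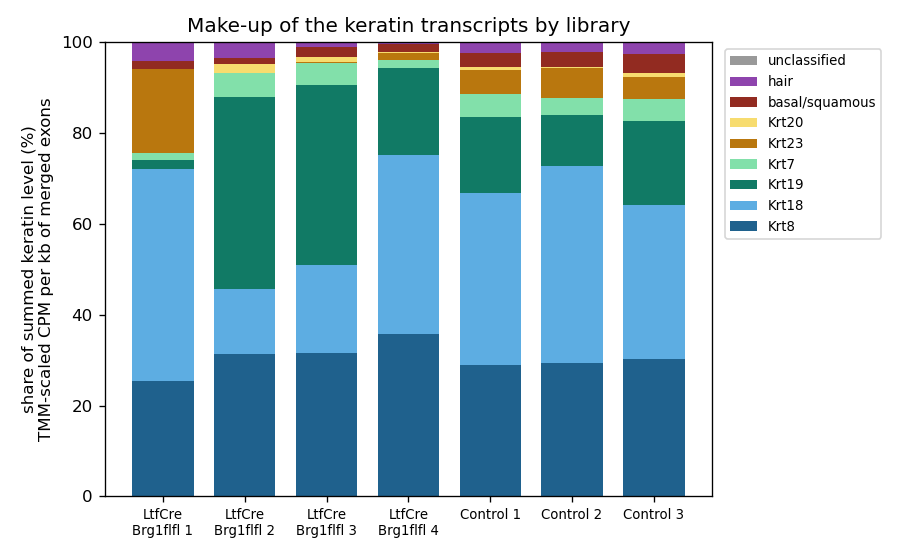
Share of each simple keratin and of the other classes in the summed keratin level of each library, in percent of scaled CPM per kb. In LtfCreBrg1flfl replicates 2 and 3 Krt19 takes 42.2% and 39.5%, in replicate 1 Krt23 takes 18.4%, and the 3 controls resemble one another.

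The summed keratin level, in reads per kb per 1000000 gene reads without further scaling, was 4820, 2969, 2646 and 2747 in mutants and 4948, 5421 and 5825 in controls. Mutant replicate 1 lay just under the lowest control. The mean of 3295 ± 1025 in mutants (SD, n = 4) was 0.610 of the 5398 ± 439 in controls (n = 3), and the ratio was 0.516 without mutant replicate 1 and 0.487 with TMM scaling. Keratins took 0.505% to 0.834% of gene reads in mutants and 0.995% to 1.18% in controls. The ratio of type I to type II chains was 2.17, 1.49, 1.63 and 1.61 in mutants and 1.65, 1.74 and 1.55 in controls, and thus overlapped between groups. Both are descriptions of chosen genes and carry no test.

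Of the 14 basal or squamous keratins tested, 2 fell, Krt4 and Krt6a, beside 6.18% of all genes tested. All mutants lay below all controls for 7 of the 14, beside 16.1% of all genes tested. Krt4, the type II keratin of non-cornified squamous epithelium (chromosome 15, 101918535 to 101924735, minus strand), showed the largest fall of the tested keratins. It measured 0.468, 1.15, 1.33 and 0.669 scaled CPM in mutants, from 6 to 19 reads, and 83.0, 81.6 and 35.9 in controls. All mutants were close to one another and far below the lowest control. The level was 73.4-fold lower (log2 fold change −6.20 ± 0.48 SE, edgeR adjusted p = 0.00179), and adjusted p stayed between 0.00150 and 0.0151 when any 1 library was left out. In per-length level Krt4 ranked 11 of all keratins in controls and 26 in mutants. Krt13, its usual type I partner (chromosome 11), was at 0.390, 2.60, 11.4 and 5.90 scaled CPM in mutants and 21.5, 10.99 and 19.4 in controls, with replicate 3 just inside the control range (−1.76 ± 0.85 SE, adjusted p = 0.204).

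Krt6a, a type II keratin of wounded and hyperproliferative epidermis, lies beside its near copy Krt6b on chromosome 15 (101689910 to 101694307 and 101676023 to 101680287, minus strand). A stretch of both, positions 817 to 876 of the longest open reading frame, is shown because it is where the copies differ most, with the 10 differing bases in capitals.
Krt6a: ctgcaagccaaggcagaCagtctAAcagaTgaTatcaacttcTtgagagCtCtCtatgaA
Krt6b: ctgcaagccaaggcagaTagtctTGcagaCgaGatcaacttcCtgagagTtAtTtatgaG
Over 1665 aligned positions the reading frames were 97.6% identical, with identical runs of up to 280 bases, and 57.2% of the 50-base words of Krt6a and 50.1% of those of Krt6b occur in another gene. Reads from the identical runs cannot be assigned to either copy, so both counts are uncertain.

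Krt6a measured 1.95, 1.69, 2.87 and 1.58 scaled CPM in mutants and 23.8, 12.9 and 29.3 in controls. The 2 groups were far apart. The level was 10.8-fold lower in mutants (log2 fold change −3.44 ± 0.37 SE, adjusted p = 0.00509), with adjusted p from 0.00407 to 0.0358 when any 1 library was left out. Krt6b was at 2.26, 13.2, 1.54 and 0.304 in mutants and 8.53, 9.66 and 50.1 in controls, mutant replicate 2 lying within the control range (−2.40 ± 1.16 SE, adjusted p = 0.206).

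Krt5 and Krt14, the pair that defines basal cells of stratified epithelia, varied widely inside both groups. Krt5 was at 11.003, 0.766, 21.5 and 0.608 scaled CPM in mutants and 0.579, 28.0 and 71.0 in controls. Krt14 was at 7.73, 4.29, 13.2 and 0.729 in mutants and 2.11, 26.9 and 69.7 in controls. Control replicate 1 was the lowest of all libraries for Krt5 and among the 2 lowest for Krt14, and control replicate 3 the highest for both. Neither passed (log2 fold changes −1.97 ± 1.497 and −2.34 ± 1.13 SE, adjusted p = 0.410 and 0.203), and 12.2% and 13.9% of their words occur in other genes. Trp63, the transcription factor that marks basal cells, was at 1.56, 0, 1.40 and 0.304 in mutants and 0.105, 0.951 and 0.817 in controls (adjusted p = 0.852).

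Krt17 and Krt80 shared 1 order of mutants. Krt17, a stress-inducible type I keratin, measured 47.0, 0.459, 0.979 and 21.5 scaled CPM in mutants and 71.3, 76.3 and 94.0 in controls (log2 fold change −2.20 ± 1.27 SE, adjusted p = 0.278). Krt80, a type II keratin found in many epithelia, measured 134.8, 15.9, 32.7 and 64.4 against 216.7, 238.4 and 231.0 (−1.88 ± 0.63 SE, adjusted p = 0.0946). In both the mutants all lay below the controls, replicate 1 highest, replicate 4 next and replicate 2 lowest. Krt80 passed without mutant replicate 1 (−2.55, adjusted p = 0.0111) and Krt17 did not (−3.31, adjusted p = 0.0820). Krt16, another stress-inducible type I keratin, was at 4.53, 0.153, 1.47 and 1.09 in mutants and 6.58, 4.65 and 6.26 in controls (−1.69 ± 0.83 SE, adjusted p = 0.210), and passed without mutant replicate 1 (−2.62, adjusted p = 0.0257), although 37.6% of its words occur in other genes.

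The remaining basal or squamous keratins named here showed smaller differences. Krt15, a type I keratin of basal cells, was at 6.87, 5.06, 10.3 and 4.98 scaled CPM in mutants and 10.8, 13.7 and 16.2 in controls, with no overlap but an adjusted p of 0.0920 (log2 fold change −0.996 ± 0.33 SE). Krt12, known as the type I keratin of cornea, was at 19.7, 37.1, 19.7 and 3.22 against 32.4, 25.6 and 55.0 (−0.92 ± 0.67 SE, adjusted p = 0.391), and 42.0% of its words occur in other genes. Krt10, the type I keratin of suprabasal epidermis, was nearly level, at 4.06, 3.98, 4.26 and 2.74 in mutants and 3.16, 3.43 and 5.72 in controls (−0.13 ± 0.34 SE, adjusted p = 0.833), and its direction turned under upper-quartile and total count scaling. Krt78, a type II keratin, was at 1.17, 2.99, 2.80 and 2.49 against 3.16, 3.486 and 3.495 (−0.51 ± 0.38 SE, adjusted p = 0.402), with no overlap. Krt1, the partner of Krt10 and a marker of cornifying cells, was too low to test, with 1, 21, 8 and 0 reads in mutants and 8, 7 and 17 in controls.

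Of 17 non-keratin markers of stratified squamous epithelium 7 had enough reads to be tested, and 1 was lower, beside 6.18% of all genes. It was Lor (loricrin, of the cornified envelope), at 0.546 to 1.26 scaled CPM in mutants and 7.82 to 15.8 in controls (log2 fold change −3.65 ± 0.43 SE, adjusted p = 0.00658). The summed level of the 17 markers was 159.2 to 825.3 in mutants and 912.5 to 2176 in controls, most of it Sprr1a (adjusted p = 0.115). Dsg1a had no read in any library. Without mutant replicate 1, 4 markers of the list were lower, beside 14.0% of all genes. The part of squamous cells in the falls of Krt4 and Krt6a was not tested.

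Hair keratins made up 4.06%, 3.30%, 0.924% and 0.397% of the summed per-length level in mutants and 2.28%, 2.08% and 2.60% in controls. Krt83 alone gave 3.90% in mutant replicate 1, and Krt84 gave 2.44% in replicate 2. Krt83, a type II hair shaft keratin, was at 335.9, 3.14, 9.30 and 3.04 scaled CPM in mutants and 160.6, 162.8 and 78.2 in controls. Mutant replicate 1 exceeded every control and was 36.1-fold above the next mutant, and the other mutants were below all controls, as with Krt23. The log2 fold change was −0.61 ± 1.56 SE (adjusted p = 0.825) over all libraries and −4.67 (adjusted p = 0.00404) without mutant replicate 1, and 22.1% of its words are shared, mostly with Krt86. Krt84, another type II hair keratin, was at 1.09, 183.5, 20.4 and 1.58 in mutants and 31.6, 43.9 and 258.4 in controls. Here it was mutant replicate 2 that stood high, and control replicate 3 (−1.11 ± 1.60 SE, adjusted p = 0.674).

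Krt36, a type I hair keratin (chromosome 11, 100102007 to 100105626, minus strand), was the hair keratin that fell. It stood at 0.312, 1.84, 0.559 and 0.304 scaled CPM in mutants, from 4 to 24 reads, and at 8.69, 6.18 and 6.13 in controls. The groups did not overlap, and the level was 9.28-fold lower in mutants (log2 fold change −3.21 ± 0.66 SE, adjusted p = 0.0270). The call ended without mutant replicate 3 or 4 or any 1 control, over adjusted p-values of 0.0113 to 0.117. Krt39, also type I, was at 3.28, 0.996, 0.140 and 0.243 in mutants and 5.90, 6.39 and 4.54 in controls (−2.28 ± 0.92 SE, adjusted p = 0.143), and passed without mutant replicate 1 (−3.58, adjusted p = 0.0115).

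The other hair keratins tested did not pass. Krt25, a type I keratin of the inner root sheath, was at 2.81, 10.6, 6.71 and 10.03 scaled CPM in mutants and 17.3, 11.8 and 37.2 in controls, with no overlap (log2 fold change −1.55 ± 0.54 SE, adjusted p = 0.103). Krt75, a type II keratin of the hair follicle, was at 4.45, 1.30, 0.0699 and 1.76 against 6.32, 3.06 and 4.31 (−1.27 ± 0.91 SE, adjusted p = 0.382). Krt87, a type II hair keratin, was at 5.38, 34.2, 10.6 and 1.09 against 21.2, 16.3 and 22.9 (−0.65 ± 0.90 SE, adjusted p = 0.660), with mutant replicate 2 above all controls, and 36.9% of its words occur in other genes.

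The unclassified Krt88, a type II gene beside the hair keratins on chromosome 15 (101447744 to 101453907, plus strand), was at 0.390, 0.459, 0.140 and 0.122 scaled CPM in mutants and 3.84, 1.80 and 2.41 in controls. Mutant replicates 3 and 4 held 2 reads each, under the floor. The fitted level was 9.60-fold lower (log2 fold change −3.26 ± 0.58 SE, adjusted p = 0.0182), and the call ended without any 1 of the controls, over adjusted p-values of 0.0103 to 0.0943. Krt79 and Krt90, both tested, stayed at or below 1.28 scaled CPM in every library and did not pass (adjusted p = 0.639 and 0.568).

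Below these, 24 keratins had too few reads to be tested, 7 basal or squamous, 16 hair and Krt222. Of these, 7 had no read in any library, all of the hair class (Krt33b, Krt34, Krt35, Krt40, Krt71, Krt72 and Krt73), which allows up to the 3-read floor in each. Another 9 never reached 3 reads in a library. The other 8 did, led by Krt86 with 22 reads in control replicate 1 and Krt1 with 21 in mutant replicate 2. Krt86 had 0, 3, 0 and 1 reads in mutants and 22, 16 and 16 in controls.

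The mutants did not share 1 keratin order. Of the 29 tested keratins, 9 were highest in mutant replicate 1 (Krt8, Krt16, Krt17, Krt18, Krt23, Krt39, Krt75, Krt80 and Krt83), 12 in replicate 2, 7 in replicate 3 and 1 in replicate 4. Mutant replicate 1 was also the lowest for 9, among them Krt4, Krt13, Krt19, Krt20 and Krt84, and replicate 4 was the lowest for 12. Over all genes tested the highest mutant was replicate 1 for 34.6%, replicate 2 for 23.1%, replicate 3 for 24.3% and replicate 4 for 18.0%, and the lowest was replicate 1 for 35.3% and replicate 4 for 19.6%. Smooth muscle markers moved with this split, their summed level being 74.0 scaled CPM in mutant replicate 1, 7.51 to 30.5 in the other mutants and 66.1 to 105.9 in controls, with Acta2, the most abundant, at 27.7, 2.91, 5.52 and 20.2 in mutants. Their part in the keratin values of mutant replicate 1 was not tested.

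**Figure D4:**
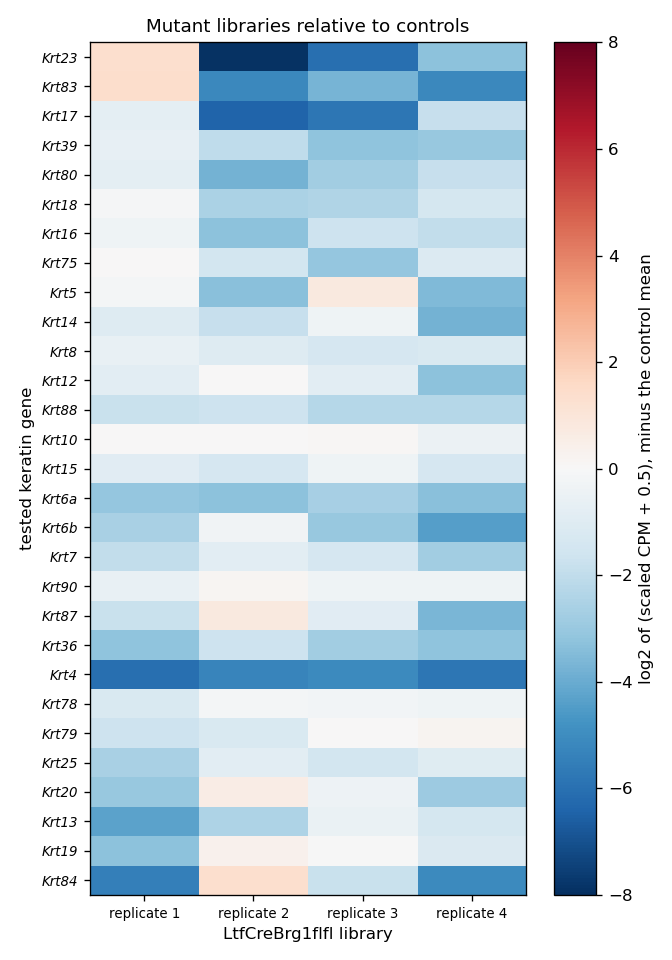
Level of each tested keratin in each LtfCreBrg1flfl library minus the control mean, as log2 of scaled CPM plus 0.5, ordered from keratins higher in replicate 1 than in the other mutants (top) to the reverse. Krt23 and Krt83 are above the control mean in replicate 1 and below it in the other 3, Krt84 is above it in replicate 2, and Krt4 is far below it in all 4.

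Markers of other cell types were measured over the whole of each list. Of 6 stromal fibroblast markers 1 was lower, beside 6.18% of all genes. It was Dcn (decorin, log2 fold change −1.77 ± 0.24 SE, adjusted p = 0.00888). The list summed to 161.1 to 469.2 scaled CPM in mutants and 535.1 to 685.9 in controls. Of 5 smooth muscle, 5 immune, 3 endothelial and 5 mesothelial markers 0 passed, the edgeR counts at an unadjusted p under 0.05 being 2, 1, 0 and 2, beside 31.0% of all genes. Without mutant replicate 1, 4 smooth muscle and 1 immune marker were lower, beside 14.0% of all genes. Summed immune markers were at 371.4 to 621.7 in mutants and 385.1 to 537.4 in controls, with Cd74 the most abundant (adjusted p = 0.318). The sum hides Cd3e, at 0, 0.306, 2.52 and 0.182 scaled CPM in mutants and 18.4, 11.6 and 7.08 in controls. Its log2 fold change was −4.02 ± 1.14 SE (edgeR adjusted p = 0.0617), and it passed with DESeq2 and limma-voom. Of the 5 immune markers, 2 had a negative fold change. Endothelial markers summed to 3.83 to 14.0 in mutants and 12.8 to 15.2 in controls, led by Pecam1. Mesothelial markers, from a lining that also expresses simple keratins, summed to 9.36 to 39.7 in mutants and 43.1 to 58.5 in controls. All 5 had a negative fold change. Upk3b had the most reads over all libraries (edgeR adjusted p = 0.121), and Msln a like control mean, 17.0 scaled CPM. Msln (log2 fold change −2.22 ± 0.77 SE, adjusted p = 0.103) passed with DESeq2 and limma-voom. Without mutant replicate 4, Msln, Upk1b and Upk3b were lower, beside 556 of 14824 genes. The part of these cells in the keratin values was not tested.

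Of 15 genes for proteins that link or organise keratin filaments, 4 were lower in mutants and 0 higher, beside 6.18% and 5.37% of all genes, and 10 of the 15 had a negative fold change. The 4 were Fam83h, which organises keratin filaments (log2 fold change −2.03 ± 0.23 SE, adjusted p = 0.00610), Plec, the cytolinker plectin (−1.42 ± 0.24 SE, adjusted p = 0.0172), and the desmosomal plaque proteins Pkp3 (−1.21 ± 0.26 SE, adjusted p = 0.0293) and Jup (−0.90 ± 0.20 SE, adjusted p = 0.0342). The list's median was −0.82. Without mutant replicate 1 the median was −0.63 and 7 were lower, beside 14.0% of all genes. Without any 1 control, or without mutant replicate 3, Fam83h alone passed, and with total count scaling Fam83h and Plec. Among 12 tested transcription factors known to act on keratin genes, 3 were lower and 0 higher, beside 6.18% and 5.37% of all genes. They were Fosl1 (−1.40 ± 0.32 SE, adjusted p = 0.0349), Ets2 (−1.27 ± 0.29 SE, adjusted p = 0.0356) and Junb (−1.02 ± 0.24 SE, adjusted p = 0.0366), and Tfap2b had no read. The AP-1 members Fos, Fosl2, Jun and Jund did not pass over all libraries. Without mutant replicate 1, 6 were lower, beside 14.0% of all genes, among them Jun (−0.71, adjusted p = 0.0301) and Jund (−1.13, adjusted p = 0.00942). Of this list 0 passed with total count scaling, without mutant replicate 3 or without any 1 control, 1 without mutant replicate 2 (Junb) and 1 without replicate 4 (Fosl1).

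Of 16 other intermediate filament genes 11 were tested, and 2 were lower and 0 higher, beside 6.18% and 5.37% of all genes. The median log2 fold change of the 11 was 0.40. Without mutant replicate 1, 3 were lower and 1 higher, beside 14.0% and 15.5% of all genes, and without any 1 control, mutant replicate 3 or mutant replicate 4, 0 passed. Vimentin (Vim), the filament of mesenchymal cells, was at 69.4, 87.8, 68.6 and 69.9 scaled CPM in mutants and 134.3, 126.9 and 106.4 in controls, with no overlap (log2 fold change −0.73 ± 0.17 SE, adjusted p = 0.0375). Prph (peripherin), a neuronal filament, was lower from a low level (−1.88 ± 0.46 SE, adjusted p = 0.0410). With total count scaling or no filter neither Vim nor Prph passed, and with upper-quartile scaling Prph alone did. Lmna (0.13, adjusted p = 0.771) and Lmnb1 (0.40, adjusted p = 0.631), of the nuclear lamina, did not pass.

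The authors' deposited table listed 42 of the 53 keratins and gave an adjusted p for 24 of them, 8 lower and 0 higher at 0.05. In the authors' deposited table these were Krt7 (log2 fold change −1.57, adjusted p = 0.00721), Krt8 (−1.01, adjusted p = 0.0347), Krt25, Krt36, Krt39, Krt80, Krt86 and Krt88. For Krt4 the authors' deposited table gave a log2 fold change of −6.20 and for Krt6a −3.42, both with no adjusted p. The DESeq2 alternative run here on the deposited counts called 10 keratins lower, Krt4, Krt6a, Krt7, Krt8, Krt15, Krt25, Krt36, Krt80, Krt86 and Krt88, and not Krt39. The share of all genes lower in the authors' deposited table was not computed, so its 8 calls have no background here. For 20 keratins the mean count in the authors' deposited table lies above the highest of the 7 libraries. The authors' calls and those made here may therefore not rest on the same libraries.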

How the data were processed

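RNA from EPCAM-selected mouse endometrial epithelium was measured in 4 LtfCreBrg1flfl and 3 control libraries, grouped by the genotype in the labels. Each mutant is 1 mouse and each control a pool, so the p-values reflect spread among individual mice and among pools. For each library the authors deposited STAR gene counts, whole-number read counts that are not normalized. STAR alignment to mm10 followed trimming with Trim Galore and cutadapt, per the submitters' processing notes. The authors also deposited a table of their comparison, which holds log2 fold changes and adjusted p-values. The mean signal per gene in that table, an average of normalized counts as deposited by the authors, was used for 1 observation.

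The reverse-stranded column was used, as it held 94.8% to 95.6% of stranded reads. Rows that name no gene (unmapped 3.90% to 6.70%, multimapping 8.45% to 11.2%, ambiguous 0.827% to 1.29% of the reads of a library, and reads outside genes) stayed out of library sizes and tests. Of 53379 gene IDs, 53274 matched GENCODE M21 (GRCm38), the source of symbols, types and lengths. Genes kept by filterByExpr were tested in R 4.3.3 with edgeR 4.0.16 (TMM scaling, a single genotype term, two-sided quasi-likelihood F test) and Benjamini-Hochberg adjustment over 14610 genes, threshold 0.05. The test was tried on simulated counts. Alternatives were DESeq2 1.42.0, limma-voom (limma 3.58.1), other scalings, no filter, unstranded counts, a replicate block and leaving out each library. Added after seeing the data were coding transcript length, TMM scaling of the summed level, and that level without mutant replicate 1.

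Keratins with a mean of at least 1 CPM over all libraries or in either group were named with every value, others where they passed or define a class. From each partner or marker list up to 4 called genes were named, by size of change among those averaging 1 CPM or more, or the most abundant where none passed, with Smarca4, Epcam, Cdh1, Vim and Trp63. Sprr1a, Esrp1, Tjp3, Fos, Fosl2, Jun, Jund, Lmna, Lmnb1, Tfap2b, Dsg1a, Cd3e, Msln and Upk1b were named after their values were seen. The family, its classes and the lists were chosen with earlier results of these data known. Uniqueness was measured as the share of 50-base words of a gene's transcripts that occur in another gene. Replicate numbers did not pair the libraries across genotypes.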

Additional observations from a re-analysis of the deposited data

Results flagged for a closer look

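For each of the 27 named keratins, the highest and the lowest of the 4 mutant libraries were compared with the rest of their group, and 5 keratins had a library whose gap to its nearest neighbour exceeded the 95% critical value of Dixon's test. Chance would flag about 1 in 20 groups if the values were normally distributed. Scaled CPM was used without taking logs, so the chance rate here is not known and the flags are descriptive. Krt23 was at 1347 scaled CPM and Krt83 at 335.9 in mutant replicate 1. Krt84 was at 183.5, Krt6b at 13.2 and Krt36 at 1.84 scaled CPM in mutant replicate 2, each well above the other 3 mutants.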

How the results depend on the processing

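Over all pairs of a named keratin and an alternative, 356 kept their direction and side of the threshold, 16 gained and 22 lost a call, and 7 reversed. The 5 keratin calls became 10 with DESeq2, 8 with limma-voom and 0 with a replicate block (11 at an unadjusted p under 0.05), and 2 to 13 when single libraries were left out. Over all genes the 1687 calls became 3293 with DESeq2, 2734 with total count scaling, 1057 without a filter, 2 with a replicate block and 133 to 4403 with single libraries left out. The 12 calls in partner and marker lists became 21, 4, 7 and 0 under the same settings (26 at an unadjusted p under 0.05 in the block), and 2 to 27 with single libraries left out. The unadjusted counts in the block, in either direction, were 11 of 29 keratins and 26 of 73 list members, beside 3052 of all 14610 genes tested. Replicate numbers do not pair these libraries (correlations of same-numbered deviations −0.02, −0.36 and 0.16). Krt4 and Krt6a passed in every setting except the block. Krt8 also missed the threshold with upper-quartile scaling, total count scaling and no filter. Krt10 reversed with upper-quartile scaling (0.0118), total count scaling (0.22), unstranded counts (0.15) and the block (0.0489), and ranged from −0.26 to 0.21 with single libraries left out. Krt84 ranged from −3.84 to 0.47, positive without control replicate 3. Krt87 passed with unstranded counts, which also take in the reads of the opposite strand described below, and not with the reads of its own strand. Higher and lower calls over all genes were 784 and 903 with TMM, 1178 and 704 with upper-quartile and 2202 and 532 with total count scaling, with median log2 fold changes of 0.06, 0.20 and 0.41. The cause of these differences was not tested. The mutants' lower depth limits what can be seen of keratins near 3 reads.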

Other observations

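Reads on the strand opposite Krt87 outnumbered those of the gene in 6 of the 7 libraries. The mutants held 455, 227, 374 and 283 such reads (replicates 1 to 4) and the controls 3136, 2013 and 1847 (replicates 1 to 3), or 17.2 to 35.5 scaled CPM against 83.8 to 165.1.

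In the authors' deposited table the mean normalized count of 20 keratins lies above the highest of the 7 libraries analysed here, when these are scaled by median ratios, as it does for 21.8% of the 23088 genes matched. For Krt5 the authors' deposited table gives a mean of 34689, where the highest of the 7 libraries holds 1150 normalized and 1564 raw reads. For Krt14 the values are 31698 in the authors' deposited table and 1130 in the highest library, and for Krt13 4888 and 350.4. Krt33b has a mean of 2.34 in the authors' deposited table and no read in any of the 7 libraries. The libraries behind those means are not named in the sources used here, so levels in the report come from the 7 count tables alone.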
